A study of Mus musculus with 2 samples.

Results

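The 9 genes described here encode the MHC class I pathway and 2 subunits of the immunoproteasome. They were taken by symbol from the 27998 genes counted in single-cell RNA sequencing (scRNA-seq) of mouse lung organoids, and each symbol matched 1 gene in both libraries. Class I molecules are made of a heavy chain (H2-K1 and H2-D1, the classical chains, and H2-T23, the non-classical chain Qa-1) and the light chain beta-2 microglobulin (B2m). Peptides cut by the proteasome enter the endoplasmic reticulum through the transporter formed by Tap1 and Tap2 and are loaded with the help of tapasin (Tapbp), and the loaded molecule shows them at the surface to CD8+ T cells and natural killer cells. Psmb8 and Psmb9 are catalytic subunits that replace their constitutive counterparts in the immunoproteasome, and the whole pathway is known for its induction by interferons and by NF-kB signaling.

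The organoids were grown from alveolar type II (AT2) cells, the surfactant-producing progenitors of the alveolus, that had been lineage-labeled in adult C57BL/6 mice by tamoxifen (0.2 mg/g body weight) through SPC-CreERT2 and a tdTomato reporter. They were co-cultured with lung stromal cells that had been expanded in culture and treated with PBS (control organoids) or interleukin-1β (IL-1β organoids), and 1 library was made per condition. The dose of IL-1β is given differently in parts of the study and is not stated here. With 1 library per condition there was no replicate check, no test was possible, and the 95% intervals given below cover counting error only.

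All of the 9 genes except B2m (chromosome 2, 122147686-122153083, plus strand) lie in the MHC region of chromosome 17, within 2117 kb (GRCm38, GENCODE M21). Tap1 (34187553-34197225, plus strand), Tap2 (34203527-34216321, plus strand), Psmb8 (34197721-34201454, plus strand) and Psmb9 (34181987-34187764, minus strand) are neighbors within 34.3 kb. H2-K1 (33996017-34000347, minus strand), Tapbp (33915899-33929292, plus strand), H2-D1 (35262730-35267499, plus strand) and H2-T23 (36029773-36032855, minus strand) lie outside that block. RefSeq promoter windows of GRCm38.p6 were found for 8 of the 9 genes (not Tap2). The 250 bases before each start site were searched on both strands for the letters GGGNNTTCC (1 form of the NF-kB site) and AANNGAAA (an IRF site). No 2 matches overlapped. The NF-kB letters occurred in 2 of the 8 windows against 4.98% of 32851 promoters in the table, and the IRF letters in 4 of the 8 against 21.3%. Only H2-K1 and H2-D1 held both, as 1.04% of all promoters did. The windows of these genes, of B2m and of Tap1, which shares most of its window with the divergent Psmb9, are shown because the levels of H2-K1 and H2-D1 varied together over cells, whereas those of Tap1 and Psmb9 did so little. Tap1 and Psmb9 have low counts per cell, and no link between the windows and the levels was tested. Matches are in capitals and every sequence runs 5′ to 3′ toward the gene.
H2-K1, chr17:34000348-34000597, minus strand: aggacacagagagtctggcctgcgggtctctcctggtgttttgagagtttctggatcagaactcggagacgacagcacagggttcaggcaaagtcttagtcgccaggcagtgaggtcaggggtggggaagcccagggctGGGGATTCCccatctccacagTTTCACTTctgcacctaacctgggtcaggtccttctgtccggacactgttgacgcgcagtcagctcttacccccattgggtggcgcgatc
H2-D1, chr17:35262844-35263093, plus strand: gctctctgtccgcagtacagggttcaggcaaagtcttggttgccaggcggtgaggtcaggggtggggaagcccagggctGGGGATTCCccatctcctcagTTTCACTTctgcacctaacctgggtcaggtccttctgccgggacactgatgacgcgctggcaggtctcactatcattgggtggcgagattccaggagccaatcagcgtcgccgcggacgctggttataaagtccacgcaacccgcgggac
B2m, chr2:122147437-122147686, plus strand: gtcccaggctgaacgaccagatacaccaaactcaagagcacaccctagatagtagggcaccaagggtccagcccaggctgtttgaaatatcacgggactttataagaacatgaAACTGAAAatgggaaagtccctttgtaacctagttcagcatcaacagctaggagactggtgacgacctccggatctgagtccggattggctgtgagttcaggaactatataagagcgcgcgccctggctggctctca
Tap1, chr17:34187306-34187555, plus strand: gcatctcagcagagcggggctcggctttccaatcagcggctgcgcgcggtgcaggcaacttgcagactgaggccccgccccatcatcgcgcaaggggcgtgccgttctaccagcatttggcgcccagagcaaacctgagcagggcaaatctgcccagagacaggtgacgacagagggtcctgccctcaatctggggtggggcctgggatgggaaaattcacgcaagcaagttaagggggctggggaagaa

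With the H2-K1 window set 60 bases along, H2-K1 and H2-D1 had the same base at 166 of 190 positions (87.4%). Each held the NF-kB letters followed by the IRF letters on the other strand. B2m had the IRF letters once. Only the 9-base form of the NF-kB letters was searched, so NF-kB sites of another form, in B2m or elsewhere, were not counted. The start sites of Tap1 and Psmb9 in RefSeq are 226 bases apart on opposite strands, so 225 bases of their windows are the same DNA, and neither set of letters was found there. The windows of Tapbp and Psmb8 had neither, and that of H2-T23 had the IRF letters 2 times. A match of letters is a description of the window and not a site shown to be bound.

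The control library held 2101 cell barcodes and the IL-1β library 3066, with medians of 14613 and 11496.5 unique molecular identifiers (UMIs) per barcode, and 5139 cells were analysed. Clusters were named from marker genes without using the 9 genes. This gave 912 control and 1920 IL-1β AT2-like cells, 25 and 287 cells like damage-associated transient progenitors (DATPs, the transitional state between AT2 and AT1 cells), 263 and 329 like alveolar type I (AT1) cells, the flat gas-exchange cells, and 784 and 475 stromal cells. Of the class markers, 9 of 9 AT2, 7 of 8 DATP, 11 of 11 AT1 and 8 of 8 stromal genes were highest in their own class in control organoids, and 7 of 9, 7 of 8, 10 of 11 and 7 of 8 in IL-1β organoids. Each of the 13 epithelial clusters took at least 95% of its cells from 1 library, so a class consisted of largely different clusters in the 2 libraries. AT1-like cells kept 34.995% and 23.1% of the summed Sftpc level of AT2-like cells in control and IL-1β organoids, and DATP-like cells 32.9% and 64.7%. With all cells thinned to equal depth, median Sftpc UMIs in control AT2-like, AT1-like and DATP-like cells were 441.5, 57 and 24. In IL-1β organoids they were 303.5, 43 and 183. The control DATP-like mean was 127.24, far above the median. The 2 DATP-like groups thus stood farther apart by medians than by summed levels. Stromal cells, which should lack Sftpc, had 3.54% and 5.91% of the summed AT2-like level, which gauges the free RNA of each library. No class lacks class I genes altogether, so none served as their background.

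A level below is in CPM, the UMIs of a gene over the cells of a class scaled to a total of 1000000 UMIs, and a ratio is the IL-1β level divided by the control level. A gene was counted as higher or lower when its level was at least 2 times or at most 0.5 times that of the other group, with at least 50 UMIs over both. The median ratio over all such genes was 1.09 in AT2-like, 0.935 in DATP-like, 1.00 in AT1-like and 0.798 in stromal cells, so ratios in stromal cells in particular are also given relative to the median gene.

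In AT2-like cells 3 of the 9 genes, Tap2, Psmb8 and Psmb9, were at least 2 times higher in IL-1β organoids, where 8.32% of 11349 genes were, and none was at least 2 times lower, as 3.36% were. In DATP-like cells Psmb8 and Psmb9 were (10.3% of 6826 genes higher and 7.22% lower), and in AT1-like cells again Psmb8 and Psmb9 (4.2% of 9293 higher, 3.05% lower). In stromal cells 1 gene, H2-D1, was at least 2 times higher (4.14% of 11332 higher, 11.5% lower). The median ratio of the 9 genes was 1.57 in AT2-like, 1.22 in DATP-like, 1.61 in AT1-like and 0.964 in stromal cells. The intervals of all 9 ratios lay above 1 in AT2-like and AT1-like cells. So did those of 14 and 12 of the 16 genes listed below as constitutive proteasome. The share of all genes with such intervals was not determined. Ratios lay above that of the median gene for 8 of 9 genes in AT2-like and 9 of 9 in AT1-like cells. They did so for 9 of 9 in DATP-like and 7 of 9 in stromal cells. The summed level of the 15 immune markers was lower in IL-1β organoids, at 6.35 and 1.80 in AT2-like and 28.0 and 10.2 in AT1-like cells, in which Csf1r made up 20.7 and 8.19. Of the 15, 6 and 10 were at 0 in AT2-like and 7 and 12 in AT1-like cells.

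**Figure D1:**
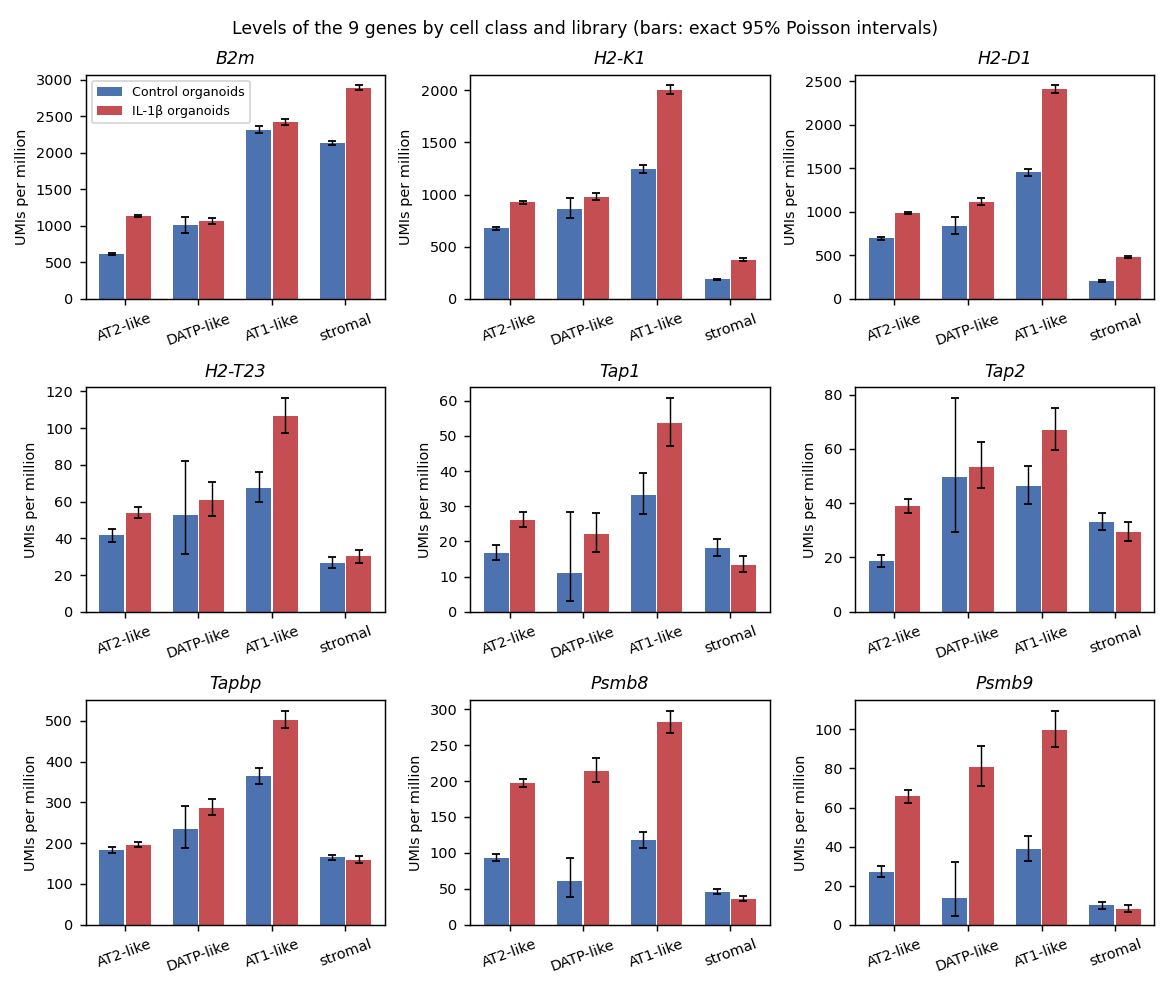
Levels of the 9 genes in CPM (vertical axis, separate scale per gene) in the 4 cell classes, with control organoids in blue, IL-1β organoids in red and exact 95% Poisson intervals as error bars. Psmb8 and Psmb9 are higher in IL-1β organoids in the 3 epithelial classes but not in stromal cells, and stromal cells lie above AT2-like cells for B2m but below them for H2-K1 and H2-D1.

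The light chain and the heavy chains differed from one another in how far the 2 libraries stood apart. B2m, the light chain shared by all class I molecules, was at 620 CPM in control and 1135 in IL-1β AT2-like cells, a ratio of 1.83 (interval 1.79 to 1.88). In AT1-like cells it was at 2316 and 2425, a ratio of 1.05 (1.02 to 1.08) that lay below 1, between 0.889 and 0.989, in 5 of the alternatives of processing. B2m thus stood farther apart between the libraries in AT2-like than in AT1-like cells, where its control level was more than 3 times that of AT2-like cells. In DATP-like cells B2m was at 1010 and 1068, and the interval of the ratio (0.949 to 1.18) held 1. In stromal cells it was at 2137 and 2893, a ratio of 1.35 (1.33 to 1.38), or 1.70 relative to the median gene, beside 1.68 in AT2-like cells on that scale.

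H2-K1, a classical heavy chain that presents peptides to CD8+ T cells, was at 679 and 924.6 in AT2-like cells, a ratio of 1.36 (1.33 to 1.40). H2-K1 in AT1-like cells was at 1247 and 2008, a ratio of 1.61 (1.55 to 1.67). H2-D1, the other classical chain, was at 695 and 984 in AT2-like cells (ratio 1.42, 1.38 to 1.45) and at 1455 and 2409 in AT1-like cells (1.66, 1.60 to 1.71). The 2 classical chains therefore had similar ratios in AT2-like and in AT1-like cells, and in AT1-like cells both ratios lay above that of B2m with no overlap of the intervals. In DATP-like cells H2-K1 was at 866 and 979 (1.13, 1.01 to 1.28, and 0.955 and 0.963 in 2 alternatives of clustering) and H2-D1 at 838 and 1115 (1.33, 1.18 to 1.501).

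Stromal cells had low levels of the classical chains and the highest ratios for them. H2-K1 was at 188 and 375, a ratio of 2.00 that fell just short of 2 before rounding (1.90 to 2.10), and H2-D1 was at 205 and 481, a ratio of 2.35 (2.24 to 2.47). Relative to the median gene these were 2.50 and 2.95. Nearly all control stromal cells came from 3 clusters and 457 of the 475 IL-1β stromal cells from another, led by Mmp3 and Spp1, in which H2-K1 was at 387 and H2-D1 at 495. In the 3 control clusters H2-K1 was between 134 and 194 and H2-D1 between 163 and 208. The share of all genes that set these clusters apart was not determined, and the remaining IL-1β stromal cells were not compared. The 15 immune markers summed to 42.5 CPM in control and 3.81 in IL-1β stromal cells, with Ptprc at 0.602 in the former and at 0 in the latter, and the 5 endothelial markers to 2.64 and 26.0. Their part in the stromal values was not tested.

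H2-T23 encodes Qa-1, which presents signal peptides of other class I chains to the CD94/NKG2A receptor of natural killer cells. It was at 41.7 and 53.9 in AT2-like cells (ratio 1.29, 1.17 to 1.43) and at 67.5 and 106 in AT1-like cells (1.58, 1.35 to 1.84). H2-T23 stood at 52.6 and 60.9 in DATP-like cells and at 26.7 and 30.1 in stromal cells, with intervals that held 1 (0.720 to 1.97 and 0.962 to 1.32). Relative to the median gene the stromal ratio was 1.41, below those of the classical chains. Of the 50-base stretches in the last 500 bases of its longest coding transcript, 38.1% also occur in transcripts of other genes, against 9.53% for H2-D1, 0.443% for H2-K1 and 0% for the other 6 genes. The values of H2-T23, and less so H2-D1 and H2-K1, are uncertain to the extent that reads of such near-identical sequence were dropped or assigned to another gene.

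**Figure D2:**
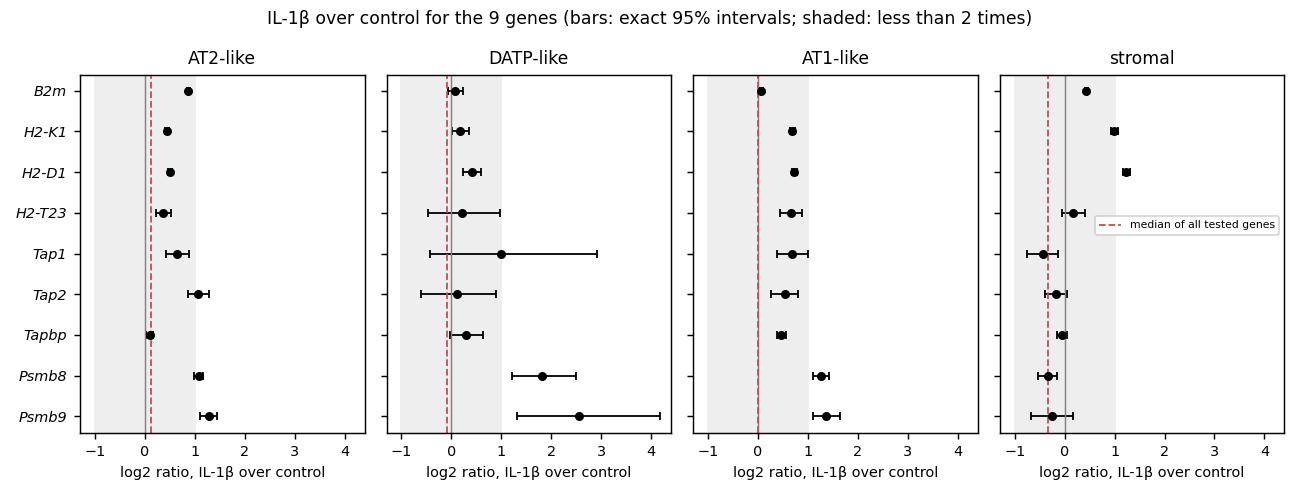
Log2 ratio of the IL-1β to the control level for the 9 genes (rows) in each class, with exact 95% intervals as bars, the median of all tested genes as a dashed red line and ratios under 2 times shaded. In stromal cells B2m, H2-K1 and H2-D1 lie to the right of the median gene, whereas Tap1, Psmb8 and Psmb9 lie at it.

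The genes of peptide transport and loading did not move as a unit in AT2-like cells. Tap1 was at 16.7 and 26.2 CPM, a ratio of 1.57 (1.34 to 1.84), and Tap2, its partner chain, at 18.6 and 39.0, a ratio of 2.10 (1.82 to 2.43). Tapbp, which holds empty class I molecules at the transporter, was at 184 and 196. Its ratio of 1.07 (1.02 to 1.12) was the smallest of the 9 and below that of the median gene (0.977 relative to it), and it lay between 0.95 and 0.987 in 4 alternatives. In AT1-like cells the 3 genes were closer together, with Tap1 at 33.2 and 53.6 (1.61, 1.29 to 2.01), Tap2 at 46.3 and 67.1 (1.45, 1.198 to 1.75) and Tapbp at 364 and 503 (1.38, 1.29 to 1.48). In DATP-like cells the control level of Tap1 rested on 4 UMIs and that of Tap2 on 18, and the intervals of their ratios (0.740 to 7.51 and 0.657 to 1.86) and that of Tapbp (0.976 to 1.54) held 1.

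In stromal cells none of the transport and loading genes had an interval above 1. Tap1 was at 18.2 and 13.4, a ratio of 0.737 (0.590 to 0.917) that became 0.924 relative to the median gene. Tap2 was at 33.1 and 29.5 and Tapbp at 165 and 159, and their intervals (0.766 to 1.04 and 0.902 to 1.03) held 1. Relative to the median gene they were 1.12 and 1.21.

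The immunoproteasome subunits had the highest ratios among the 9 genes in all epithelial classes. Psmb8 (LMP7) was at 93.3 and 197 in AT2-like cells, a ratio of 2.12 (1.99 to 2.26), and at 118 and 282 in AT1-like cells, a ratio of 2.39 (2.15 to 2.67). Psmb9 (LMP2) was at 27.1 and 65.7 in AT2-like cells (2.43, 2.16 to 2.73) and at 38.7 and 99.8 in AT1-like cells (2.58, 2.14 to 3.12). Relative to the median gene the AT2-like ratios were 1.94 for Psmb8 and 2.22 for Psmb9, and that of Tap2 was 1.92, so only Psmb9 of the 3 stayed past 2 times on that scale, and the count of 3 became 1. In DATP-like cells Psmb8 was at 60.9 and 214 (3.52, 2.31 to 5.66) and Psmb9 at 13.8 and 80.8 (5.84, 2.47 to 18.2). The control values there rested on 22 and 5 UMIs in 25 cells. Over the alternatives of processing the Psmb8 ratio ran from 1.24 to 4.03, below 2 at resolution 0.5 of the clustering, and that of Psmb9 from 2.12 to 6.86. The DATP-like class itself held 25 to 80 control and 110 to 1251 IL-1β cells over 9 other clusterings.

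Stromal cells differed. Psmb8 was at 46.1 and 36.4, a ratio of 0.790 (0.690 to 0.903) or 0.990 relative to the median gene, and Psmb9 was at 9.86 and 8.25, with an interval (0.624 to 1.12) that held 1. The Psmb8 level of the IL-1β stromal cluster, 35.4, lay within the range of the 3 control stromal clusters (27.1 to 51.9). Expressed against AT2-like cells of the same library, stromal Psmb9 was 36.4% in control and 12.5% in IL-1β organoids, and stromal Sftpc 3.54% and 5.91%.

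When the sampled depth was made equal by thinning every cell to 4500 UMIs, which left out no cell, Psmb9 was found in 11.5% of control and 26.6% of IL-1β AT2-like cells (29.6% and 50.7% before thinning). Psmb8 was found in 32.2% and 56.5% of them (63.2% and 82.7% before). The shares of AT2-like cells with Tapbp were 57.9% and 57.8%, in step with its level. The thinned count of B2m in AT2-like cells had a median of 2 UMIs in control and 4 in IL-1β organoids, and the 10th and 90th percentiles were 0 and 6 against 1 and 10, so the distributions overlapped widely. In stromal cells Psmb9 was found in 4.59% and 4.42%, and H2-D1 in 50.9% and 79.6%. Median depth per cell was 13953 and 11350.5 UMIs in AT2-like cells and 15638 and 14849 in stromal cells.

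Among the classes, AT1-like cells had the highest level of 8 of the 9 genes in control organoids and of 8 of 9 in IL-1β organoids. The exceptions were Tap2 in control organoids, highest in DATP-like cells with an interval that overlapped that of AT1-like cells, and B2m in IL-1β organoids, highest in stromal cells. The share of all genes that were highest in AT1-like cells was not determined. All 9 levels were above those of AT2-like cells in both libraries, with intervals above 1. For these intervals, too, the share of all genes was not determined. In control organoids 3 of the 9 (B2m, H2-D1 and Tap2) were at least 2 times higher than in AT2-like cells, where 17.2% of 10160 genes were, and in IL-1β organoids 5 (B2m, H2-K1, H2-D1, Tap1 and Tapbp) were, where 11.6% of 11049 genes were. Both counts became 1 without abundant genes and with median-of-ratios size factors. The median ratio over AT2-like cells was 1.98 for the 9 genes and 1.31 for all genes in control organoids, and 2.04 and 1.23 in IL-1β organoids. Several members lay close to the threshold, with Tap1 at 1.99 and Tapbp at 1.98 in control organoids and H2-T23 at 1.97 in IL-1β organoids just below it. The ratio was largest for B2m in control organoids, at 3.74 (3.62 to 3.85), and was 2.14 (2.09 to 2.19) in IL-1β organoids. It was smallest for Psmb8 in both, at 1.26 (1.13 to 1.41) and 1.43 (1.34 to 1.52). Differences between AT2-like and AT1-like cells were therefore greater for the chains and the loading genes than for the immunoproteasome subunits.

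DATP-like cells differed from AT2-like cells in both directions. In control organoids Tap2 alone was at least 2 times higher than in AT2-like cells (2.68, 1.56 to 4.32), where 18.3% of 9542 genes were, and in IL-1β organoids none of the 9 was, where 5.03% of 10923 genes were. In control organoids B2m was at 1.63 times its AT2-like level (1.46 to 1.81), whereas Psmb8 was at 0.653 times (0.407 to 0.993) and Psmb9 at 0.511 times (0.165 to 1.203). The median ratio of the 9 genes, 1.26 and 1.13, was near that of all genes, 1.28 and 1.10. In IL-1β organoids Tapbp had the highest ratio, 1.46 (1.36 to 1.57), and B2m and Tap1 were the only members below 1, at 0.941 (0.907 to 0.977) and 0.838 (0.639 to 1.08). Levels in DATP-like cells were thus between those of AT2-like and AT1-like cells for 5 of the 9 genes in control organoids. In IL-1β organoids this held for 7 of the 9, with B2m and Tap1 the exceptions. Intervals were disregarded in both counts, and the share of all genes with levels in between was not determined.

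Stromal cells combined high B2m with low classical heavy chains. B2m was 3.45 times its AT2-like level in control organoids (3.36 to 3.53) and 2.55 times in IL-1β organoids (2.51 to 2.59), and was the only member at least 2 times higher, where 26.4% of 11695 and 15.4% of 11788 genes were. H2-K1, H2-D1, Psmb8 and Psmb9 were at least 2 times lower in both libraries, where 13.1% and 20.6% of genes were. H2-K1 stood at 27.7% and 40.6% of its AT2-like level and H2-D1 at 29.5% and 48.9%. Psmb8 stood at 49.4% in control and 18.4% in IL-1β organoids. The stromal classical chains thus lay nearer to AT2-like cells in IL-1β organoids, and the stromal immunoproteasome subunits farther from them. Tap1 went from 1.09 times (0.905 to 1.31) to 0.512 times (0.419 to 0.621) the AT2-like level.

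IL-1β AT2-like cells formed 4 large clusters, and the 9 genes, which were left out of clustering, differed among them. The cluster led by Slc26a4 and Cd14 (633 cells) had the highest level of all 9 genes. The share of all genes that were highest in this cluster was not determined. B2m was at 1525 CPM there, at 1137 in the cluster led by Dmkn and Pf4 (264 cells), at 1011 in that led by Gstm1 and Spink5 (609 cells) and at 738 in that led by BC030867 and Dmkn (411 cells), against 620 in all control AT2-like cells. H2-K1 ran from 714 to 1221 and H2-D1 from 787 to 1338 over the same clusters. Psmb8 varied least of the 9 genes over these clusters. It ran from 178 to 228, a span of 1.28 times against 2.07 times for B2m and 1.71 and 1.70 times for H2-K1 and H2-D1, and every cluster was at least 1.91 times the control level. Psmb9 ran from 50.5 to 81.1, a span of 1.61 times, and Tap2 from 30.2 to 49.6, each above the control interval in 4 of 4 clusters. Tapbp was above it in 1 of 4 clusters and H2-T23 in 1 of 4. In the cluster led by BC030867 and Dmkn, H2-K1 (714 against 679) and Tap1 (18.5 against 16.7) were near the control level while Psmb9 (64.1 against 27.1) was not. Among control AT2-like cells, a small cluster led by Scgb1a1 (68 cells) had lower levels of the classical chains than the main one, with H2-D1 at 503 against 702.

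**Figure D3:**
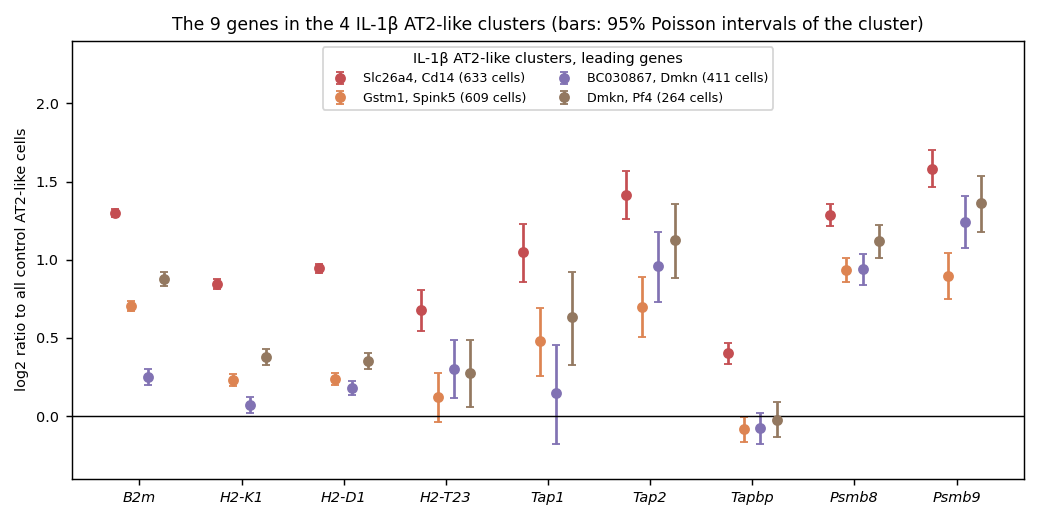
Log2 ratio of each of the 4 large IL-1β AT2-like clusters to all control AT2-like cells for the 9 genes, with 95% Poisson intervals of the cluster as bars (the control error is not included). The Slc26a4 and Cd14 cluster is highest for every gene, Psmb8 and Psmb9 are above the control level in all 4 clusters, and Tapbp is near it in 3 of them.

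Within a class the classical chains and B2m varied together from cell to cell. In IL-1β AT2-like cells Pearson's r over 1920 cells was 0.60 between H2-K1 and H2-D1, 0.54 between B2m and H2-K1 and 0.53 between B2m and H2-D1. In control AT2-like cells, over 912 cells, these were 0.51, 0.43 and 0.44. The H2-K1 and H2-D1 pair reached 0.65 in control and 0.72 in IL-1β AT1-like cells, and 0.46 and 0.64 in stromal cells. Other pairs were weaker in AT2-like and AT1-like cells. In IL-1β stromal cells Tapbp had 0.35 with H2-K1 and 0.36 with H2-D1, where B2m had 0.26 and 0.37. In the 25 control DATP-like cells H2-D1 and Psmb9 had 0.41, and B2m and H2-K1 0.34. Psmb8 and Psmb9 had 0.20 and 0.12 in AT2-like cells, and Tap1 and Psmb9, whose RefSeq start sites lie 226 bases apart, had 0.02 and 0.14. These cells share a library and were scaled by their own total, and the low genes have few UMIs per cell. Reads of the classical chains may be exchanged where their ends are alike, and 0.443% of the 50-base stretches at the end of H2-K1 occur in H2-D1. That exchange was not tested, and the values are descriptions only.

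**Figure D4:**
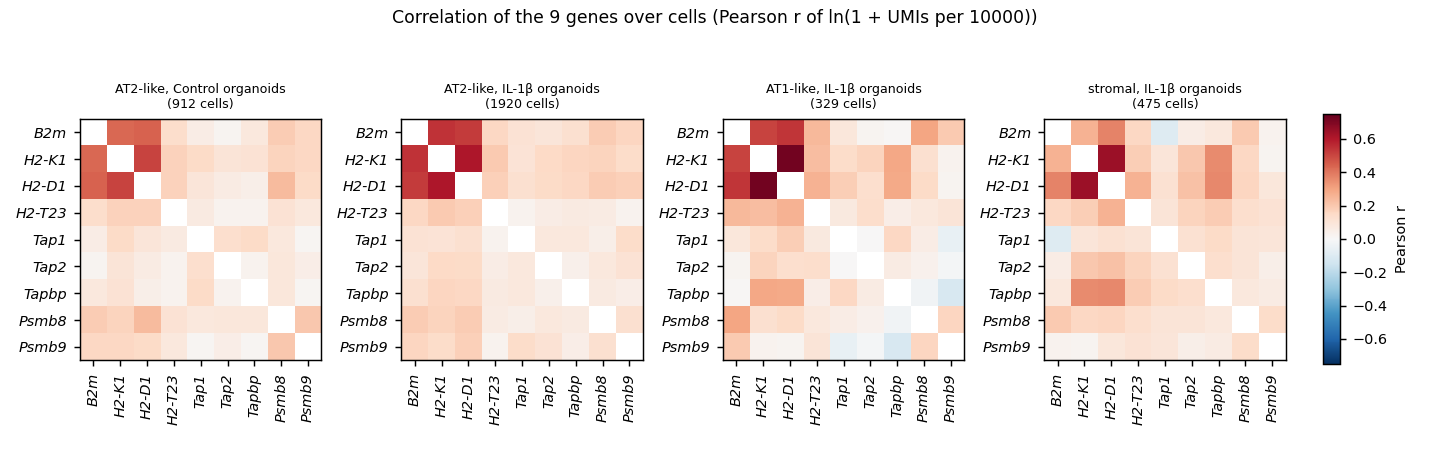
Pearson's r over cells between the 9 genes, from natural logarithms of 1 plus UMIs per 10000, in control and IL-1β AT2-like, IL-1β AT1-like and IL-1β stromal cells. B2m, H2-K1 and H2-D1 form the darkest block in the AT2-like and AT1-like panels. In the stromal panel H2-K1 and H2-D1 are the darkest pair, and Tapbp is about as dark with them as B2m is. Pairs with low genes such as Tap1 and Psmb9 are pale.

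The remaining genes of the pathway were grouped in 8 lists. Of the other class I heavy chains 8 of 14 had enough UMIs in AT2-like cells, and 4 were at least 2 times higher in IL-1β organoids with none at least 2 times lower (8.32% and 3.36% of all genes). These were H2-Q7 and H2-Q6, which encode Qa-2 chains, H2-M3, which presents formylated peptides, and Mr1, which presents vitamin B metabolites to MAIT cells. H2-Q7 was at 14.1 and 47.3 (ratio 3.34, 2.86 to 3.93), H2-Q6 at 7.56 and 19.8 (2.62, 2.11 to 3.29), H2-M3 at 6.28 and 14.2 (2.26, 1.77 to 2.92) and Mr1 at 3.10 and 8.33 (2.69, 1.91 to 3.86). In AT1-like cells H2-Q7 was at 15.97 and 69.5 (4.35, 3.30 to 5.82). H2-Q7 and H2-Q6 share 6.21% and 35.9% of the 50-base stretches in their last 500 bases with other genes, H2-Q4 33.7% and H2-T22 59.2%. H2-Q4 was at 43.8 and 62.6 in AT2-like cells and H2-T22 at 35.1 and 45.0, ratios of 1.43 and 1.28. In stromal cells H2-T22 went the other way, at 70.8 and 40.6 (0.574, 0.508 to 0.647).

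The third catalytic subunit of the immunoproteasome, Psmb10, and the 2 chains of the activator PA28, Psme1 and Psme2, had ratios above 1 in AT2-like and AT1-like cells. Psmb10 was at 38.04 and 72.01 in AT2-like cells (1.89, 1.71 to 2.10) and at 51.8 and 99.4 in AT1-like cells (1.92, 1.62 to 2.28). Psme1 was at 238 and 384 (1.61, 1.55 to 1.68) and Psme2 at 173 and 300 (1.74, 1.66 to 1.82) in AT2-like cells, and these intervals lay below those of Psmb8 and Psmb9. None of the 4 genes of that list, which also holds the assembly factor Pomp, was at least 2 times higher in AT2-like cells, 3 were in DATP-like cells (10.3% of genes) and 1, Psme1, in AT1-like cells (4.2% of genes). In stromal cells all 4 were below 1 and their intervals too, with Psmb10 at 92.3 and 49.9 (0.541, 0.485 to 0.602), and their median ratio, 0.659, lay below the 0.798 of the median gene. The IL-1β stromal cluster had Psmb10 at 50.02, against 54.6, 58.2 and 108 in the control stromal clusters.

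The 16 genes listed as constitutive proteasome differed less. They include Psma1 to Psma7 and Psmb1 to Psmb4, which the immunoproteasome shares, and the activators Psme3 and Psme4. The median ratio of the 16 was 1.40 in AT2-like, 0.967 in DATP-like, 1.22 in AT1-like and 0.887 in stromal cells. None was at least 2 times higher or lower in any of the 4 classes. Psmb5, Psmb6 and Psmb7, the catalytic subunits that Psmb8, Psmb9 and Psmb10 replace, had ratios of 1.51 (1.44 to 1.58), 1.41 (1.35 to 1.48) and 1.29 (1.21 to 1.38) in AT2-like cells. These intervals did not overlap those of their immunoproteasome counterparts. Of the 7 other loading and trimming genes none of those with enough UMIs was at least 2 times higher or lower in the 4 classes. Tapbpl (TAPBPR), a peptide editor related to tapasin, was at 22.3 and 39.3 (1.76, 1.54 to 2.01), the peptidase Erap1 at 7.19 and 8.77 (1.22, 0.952 to 1.58), and calnexin (Canx), a chaperone of new heavy chains, at 244 and 182 (0.746, 0.712 to 0.781).

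Of the 18 transactivator genes with enough UMIs in AT2-like cells 3 were at least 2 times higher (8.32% of all genes). They were the NF-kB genes Relb (11.5 and 46.7, ratio 4.06, 3.42 to 4.85) and Nfkb2 (13.9 and 31.6, 2.27, 1.93 to 2.69) and Rfxank (4.61 and 10.6, 2.29, 1.72 to 3.09), a subunit of the RFX complex that binds MHC promoters. Irf1, an interferon-induced factor, was at 16.1 and 27.3 (1.70, 1.45 to 1.99). Nlrc5, the coactivator of class I genes, had a measured level below 3 CPM in all classes of both libraries, with at most 24 UMIs in any of them. In control DATP-like cells it had 0 of 361499 UMIs, where the limit of 3 UMIs is 8.30 CPM, so a level above 3 CPM could be missed there. In stromal cells 7 of 18 were at least 2 times lower (11.5% of all genes), among them Irf1 (21.8 and 10.4, 0.476, 0.375 to 0.601), while Relb (50.7 and 56.2) and Nfkb2 (36.8 and 41.9) had intervals that held 1.

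Of 10 interferon receptor and signaling genes with enough UMIs in AT2-like cells 3 were at least 2 times higher (8.32% of all genes). They were the receptor chains Ifngr2 (47.0 and 107, ratio 2.26, 2.07 to 2.48) and Ifnar2 (39.0 and 96.8, 2.48, 2.25 to 2.73) and the phosphatase Ptpn2 (21.8 and 53.9, 2.47, 2.17 to 2.82). Ifngr1 was at 27.3 and 42.0 (1.54, 1.36 to 1.74) and was below 1 in stromal cells (112 and 65.5, 0.584, 0.531 to 0.642). Ifnb1, which encodes interferon beta, had 6 UMIs in IL-1β AT2-like cells (0.263 CPM, interval 0.0966 to 0.573) and 0 in the other 3 IL-1β classes and all 4 control classes (up to 0.227 CPM in control AT2-like cells). No UMI of Ifng, Ifnl2 or Ifnl3 was found in any of the 4 classes of either library, which at 13221497 UMIs of control and 22802355 UMIs of IL-1β AT2-like cells allows levels of up to 0.227 and 0.132 CPM. For these genes and Ifnb1, the classes with fewer UMIs allow higher levels, up to 8.30 CPM in control DATP-like cells (361499 UMIs). Cd274 (PD-L1), a ligand of the inhibitory receptor PD-1, was at 0.378 and 0.0877 in AT2-like cells (5 and 2 UMIs) and at 3.31 and 5.82 in stromal cells. All 6 class II genes had intervals above 1 in the 3 epithelial classes, with median ratios of 1.57, 3.16 and 1.80 in AT2-like, DATP-like and AT1-like cells, and the 6 were all at least 2 times higher in DATP-like cells (10.3% of genes).

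**Figure D5:**
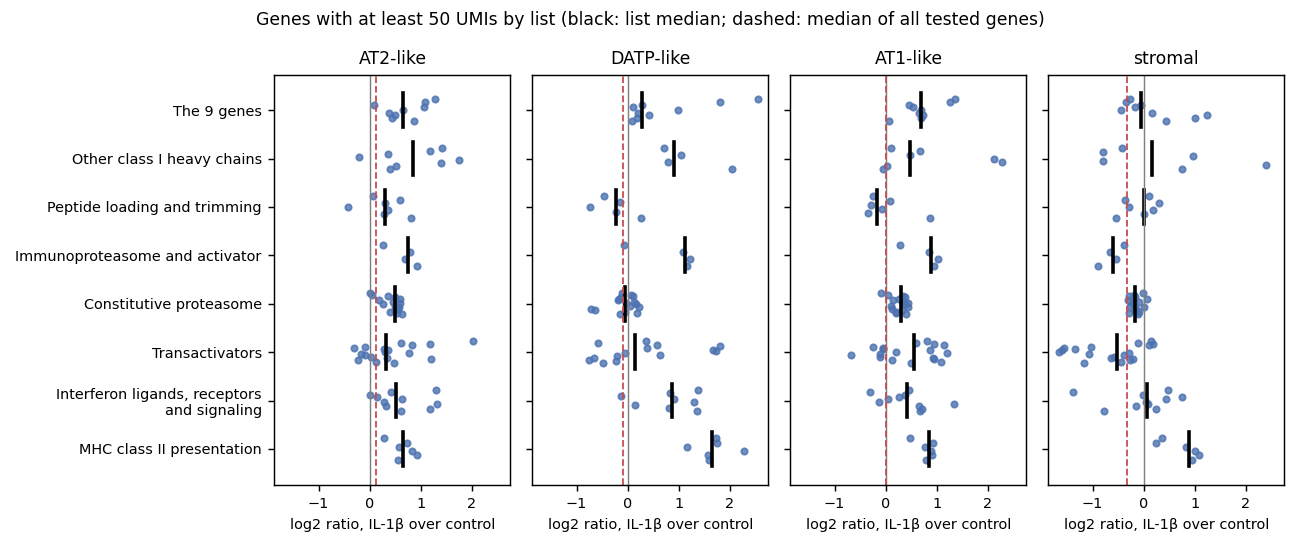
Log2 ratio of IL-1β to control for each gene with at least 50 UMIs (points), by list (rows) and class (panels), with list medians in black and the median of all tested genes as a dashed red line. The immunoproteasome and activator list lies right of the median gene in the epithelial classes and left of it in stromal cells.

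Over the 8 values of 4 classes and 2 libraries, Decr1, a mitochondrial dienoyl-CoA reductase, had the pattern most like the mean of the 9 genes among 11399 genes (Pearson's r 0.996 of log2 of 1 plus the level), followed by Rce1 (0.981), Kat5 (0.977), Stxbp3 (0.975), Cyp4f13 (0.974), Apool (0.971), Ssh1 (0.970), Rgs11 (0.969), Tmem129 (0.964) and Pnpla6 (0.964). None of these belongs to the pathway lists. The levels of Decr1 were 33.6 and 52.3 in AT2-like, 35.96 and 51.4 in DATP-like, 59.2 and 81.9 in AT1-like and 27.3 and 28.9 in stromal cells. Of the 9 genes themselves, H2-T23 was most like the mean of the other 8 (0.963) and B2m least (-0.00673).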

How the data were processed

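Mouse lung organoids were profiled by 10x scRNA-seq, 1 library per condition. The files deposited by the authors hold raw UMI counts for each gene in each cell. The submitters' processing notes name Cell Ranger, Scanpy 1.3.6 and GRCm38 (mm9 is also listed, without its role). The deposited barcodes had not been reduced to the study's own cutoffs, so cells with 500 to 7000 genes and at least 2000 UMIs were kept (2083 control and 3059 IL-1β). A doublet score removed 3 cells (0.0583%), too few to regard doublets as removed. The libraries shared 11 barcodes.

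Cells were clustered (scanpy 1.11.5, leidenalg 0.10.2, 50 principal components, 15 neighbors, resolution 1) on natural log values per 10000 UMIs. The 9 genes and the further genes of the pathway lists were left out of clustering. Clusters were named by marker genes. The 9 genes, the 86 further pathway genes (2 absent from the files) and the markers were chosen with earlier results of these data known, and the rule that scores the markers was set after clusters were seen. UMIs were summed per class and library. Levels have exact Poisson intervals, ratios exact conditional binomial intervals and shares exact Clopper-Pearson intervals (95%, scipy 1.17.1). PCR and sampling of cells, animals or cultures are not covered, since intervals hold counting error only. The limit for a count of 0 is 3 UMIs. No test was possible, as each condition is a single library. The text names all 9 genes, the pathway genes past 2 times in AT2-like cells, further pathway genes listed whatever their values (some in both sets), and the 10 genes most like the mean pattern among those with at least 100 UMIs, leaving out mitochondrial, ribosomal protein and predicted genes. Canx was chosen after its values were seen, and 1 gene of the rule is not reported here. The calculations were tested on simulated data.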

Additional observations from a re-analysis of the deposited data

Results flagged for a closer look

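Among the 25 pathway genes named by rule, 6 from 4 lists had ratios of IL-1β to control that went opposite ways in AT2-like and stromal cells. Their whole intervals lay above 1 in AT2-like and below 1 in stromal cells, and likewise above and below the median gene of the class. The share of all genes that met this rule was not determined. The AT2-like ratio divided by the stromal ratio was 3.5 for Psmb10, 2.36 for Psme1 and 2.74 for Psme2, the immunoproteasome subunit and the PA28 activator chains. It was 3.56 for the transcription factor Irf1, 2.63 for the interferon gamma receptor chain Ifngr1 and 2.23 for the heavy chain H2-T22, whose last 500 bases are shared with another gene for 59.2% of their 50-base stretches. Relative to the median gene of the class, AT2-like and stromal ratios lay closer together. They were 1.73 and 0.678 for Psmb10, 1.48 and 0.860 for Psme1 and 1.59 and 0.794 for Psme2. For Irf1 they were 1.55 and 0.597, for Ifngr1 1.41 and 0.732 and for H2-T22 1.17 and 0.719. Tapbpl (1.76 in AT2-like and 0.688 in stromal cells), and Irf7 (1.29 and 0.318) and Irf9 (1.22 and 0.394), chosen after their values were seen, had intervals on either side of 1 but not of the median gene in both classes. These differences between cell classes were not tested, since each condition had 1 library.

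A group of 34 IL-1β cells led by Ccl20 and Spib could not be given a class and entered no comparison. H2-Q7 was at 254 CPM in these cells (214 to 301) and Psmb8 at 318 (272 to 369), against 14.1 and 93.3 in control AT2-like cells. In the same library H2-Q7 was at 47.3 in AT2-like and 69.5 in AT1-like cells, and Psmb8 at 197 and 282, so the Psmb8 interval of the 34 cells held the AT1-like level. B2m was at 1760 and H2-K1 at 1476, below the 2425 and 2008 of AT1-like cells in that library. Relb was at 165, above the 76.8 of those cells. In 9 further IL-1β cells, named airway-like from markers, H2-Q7 was at 117 (76.5 to 172). These differences were not tested.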

How the results depend on the processing

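Of 221 values that 16 counts of genes past the threshold took under 14 alternatives, 196 stayed within 1.5 times of the count given. The count of 3 genes higher in IL-1β AT2-like cells became 1 with the libraries clustered separately, without abundant genes and with median-of-ratios size factors, and 5 at a fold of 1.5. The AT1-like count of 2 became 6 at a fold of 1.5. The DATP-like count of 2 became 1 at resolution 0.5, and the stromal count of 1 became 2 with the top 5% of doublet scores removed, median-of-ratios size factors, the mean over cells and a fold of 1.5. For AT1-like over AT2-like cells, the control count of 3 became 5 with all barcodes, with the top 5% of doublet scores removed and at resolution 0.5, 1 without abundant genes and with median-of-ratios size factors, and 7 at a fold of 1.5. The IL-1β count of 5 became 1, 1 and 8 under the last 3 of these. For DATP-like over AT2-like cells, the control count of 1 became 3 at resolution 0.5, 0 with the libraries clustered separately and with median-of-ratios size factors, and 2 at a fold of 1.5, and the IL-1β count of 0 became 1 at resolution 0.5. The stromal over AT2-like control count of 1 became 2 at a fold of 1.5. The cause was not tested.

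Of 423 values of the 36 ratios of the 9 genes, 11 turned direction, all of them in ratios whose interval lay above 1. The B2m ratio in AT1-like cells was 0.989 with all barcodes, 0.889 with the top 5% of doublet scores removed, 0.982 at resolution 2, 0.976 without abundant genes and 0.925 as a mean over cells. The Tapbp ratio in AT2-like cells was 0.95 at resolution 0.5, 0.987 with the libraries clustered separately, and 0.982 without abundant genes and with median-of-ratios size factors. The H2-K1 ratio in DATP-like cells was 0.963 at resolution 2 and 0.955 with another random seed. Ratios whose interval held 1 were not counted as turned, but some of them also lay on both sides of 1. In DATP-like cells B2m ran from 0.851 to 1.24, Tap1 from 0.991 to 2.71, Tap2 from 0.901 to 2.22 and Tapbp from 0.992 to 1.4. In stromal cells Tap2 ran from 0.865 to 1.14, Tapbp from 0.924 to 1.2 and Psmb9 from 0.766 to 1.04. Over all alternatives Psmb9 ran from 2.17 to 2.49 in AT2-like and from 2.31 to 2.68 in AT1-like cells, and Psmb8 from 1.24 to 4.03 in DATP-like cells. Resolution 0.5 left 4 AT1-like IL-1β cells and gave no value for them. No paired analysis was possible because each condition has 1 library.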
